A study of Homo sapiens with 28 samples.

Results

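Resistant Z138 cells exposed to ONC201 were compared with untreated resistant Z138 cells. The comparison takes 4 of the 28 arrays of the series, picked by their sample titles: 2 wells of resistant cells with 5 µM ONC201 for 24 h and 2 wells of resistant cells left untreated, with DMSO alone, for 24 h. Z138 is an established human line of mantle cell lymphoma, a B-cell cancer, and the resistant cells are labelled as resistant to ONC201. How resistance was obtained, and whether the cells are 1 clone, is not given in the sources used here. Parental Z138 cells, with 5 µM ONC201 for 24 h and untreated for 24 h (2 wells each), served to set the size of the resistant cells' response beside that of the cells they are named after.

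ONC201 is a small molecule that activates CLPP, the protease of the mitochondrial matrix, and sets off the integrated stress response. In that pathway kinases phosphorylate the translation factor eIF2, general protein synthesis slows, and the transcription factor ATF4 is translated. ATF4 and its partner CHOP, encoded by DDIT3, then switch on genes for amino acid supply, tRNA charging and the restraint of growth signalling through the kinase complex mTORC1. The question addressed here is how much of this response was left in resistant cells, and in which groups of genes.

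Expression was read as bead intensity and is given as background-corrected, quantile-normalized log2 intensity. A change is the mean of the ONC201 wells minus the mean of the control wells on that scale, with the standard error from limma (n = 2 per group). A gene was called at a Benjamini-Hochberg adjusted p under 0.05 over the 9453 genes tested. Median signals of the 8 Z138 arrays ran from 60.9 to 67.1 intensity units, and 31.8% to 34.8% of their probes were detected. The labels do not say that the wells of a group were separate cultures, so p-values measure the spread between these wells, which may be technical; so few arrays limit the precision. All 8 arrays lay on 1 chip and their places followed the groups, so place and group cannot be told apart. Among B-cell markers, 16 of the 20 with a probe were detected on all 4 resistant arrays, MS4A1 (CD20) and CD79B included. BLNK, CR2 and TCL1A were detected on none. Of 13 mantle cell lymphoma genes, 8 were detected on all 4, CCND1 (cyclin D1) and SOX11 included, while CD5, ATM and CDK6 were detected on none. Plasma cell markers were present too, 11 of 12 on all 4. Of 11 markers of T and NK cells, 8 were detected on none of the 4, while CD3G and PRF1 were detected on all 4.

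The response of resistant cells was small. On the probe that represented each gene, only 2 genes changed at least 2-fold, PTMA and MAZ, which both fell. In parental cells 523 did (5.53%), 317 higher (3.35%) and 206 lower (2.18%). A change of at least 1.5-fold was seen in 121 genes in resistant cells and in 1931 genes in parental cells. The median absolute log2 change was 0.14 in resistant cells and 0.29 in parental cells. Over all genes, 2 ONC201-treated resistant wells differed from each other with an SD of 0.212 and 2 untreated resistant wells with an SD of 0.197, while treated and untreated resistant wells differed with an SD of 0.254 to 0.267. In parental cells the treated and untreated wells differed with an SD of 0.532 to 0.551. The distance that ONC201 put between resistant wells was thus slightly larger than the distance between wells of 1 group.

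In resistant cells, limma called 46 of the 9453 genes (0.487%), 10 higher (0.106%) and 36 lower (0.381%), with adjusted p between 0.0394 and 0.04998. At an unadjusted p under 0.05 stood 1864 genes (19.7%), 877 higher (9.28%) and 987 lower (10.4%). In parental cells 4232 genes were called (44.8%), 2158 higher (22.8%) and 2074 lower (21.9%). When all 17291 detected probes were tested in place of 1 per gene, 15 were called in resistant cells (0.0868%), of which 10 were among the 5013 probes without a gene name (0.199%). BCL7A and TBC1D24 were called there on a dimmer probe, with changes of -1.04 and -1.03 (limma, adjusted p = 0.0245 and 0.0277). The resistant and the parental change differed in 2886 genes (30.5%) by limma's test of the difference itself. The treated and untreated resistant wells did not overlap in all 46 genes called, and they did not overlap in 52% of all genes tested. The 46 calls lie at the edge of the threshold: leaving out any 1 of the 8 Z138 arrays, resistant ONC201 replicate 1 or 2, resistant control replicate 1 or 2, or either replicate of a parental group, left 0 calls, with 1306 to 1895 genes at an unadjusted p under 0.05.

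Genes that moved most in parental cells hardly moved in resistant cells. Over the 523 genes called and changed at least 2-fold in parental cells, the slope through 0 of the resistant on the parental log2 change was 3.02%, and 294 of them (56.2%) had the same direction in both. Over all 9453 genes the slope was 3.06%, and 51.3% had the same direction. With arrays centred on their medians in place of quantile normalization, which moved the median of all genes in resistant cells to -0.12, the slope over the 523 genes was -2.09%. Among the 317 parental rises, the median change was 0.04 in resistant cells and 1.29 in parental cells. In resistant cells 42 of these 317 (13.2%, against 9.28% of all genes) were higher and 17 (5.36%, against 10.4%) lower at an unadjusted p under 0.05. Among the 206 parental falls, 30 (14.6%) were lower in resistant cells and 12 (5.83%) higher. By the test of the difference, the effect of ONC201 differed between resistant and parental cells in 515 of the 523 genes (98.5%). Over all genes the share was 30.5%. The 523 genes were chosen on a large parental change, which the difference contains. A high count thus follows largely from the choice and is a description. Across all genes the log2 changes in the 2 kinds of cell correlated with r = 0.07 (n = 9453 genes, which are not independent replicates).

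PAG1, which encodes an adaptor that recruits the kinase CSK to the membrane, had the largest parental rise. Its levels were 5.63 and 5.66 in resistant ONC201 wells and 5.71 and 5.89 in resistant controls, against 9.38 and 9.23 in parental ONC201 wells and 5.47 and 5.30 in parental controls. CCPG1, a receptor for autophagy of the endoplasmic reticulum, had 6.08 and 5.97 in resistant ONC201 wells and 5.90 and 6.03 in resistant controls, against 9.69 and 9.61 in parental ONC201 wells and 6.11 and 5.93 in parental controls. Both genes thus had overlapping or nearly overlapping wells in resistant cells, while in parental cells treated and untreated wells lay far apart. Among the parental falls, MYBPH changed by 0.17 ± 0.09 in resistant and -3.03 in parental cells, and the helix-loop-helix inhibitor ID3 by 0.11 ± 0.09 in resistant and -2.44 in parental cells.

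**Figure D1:**
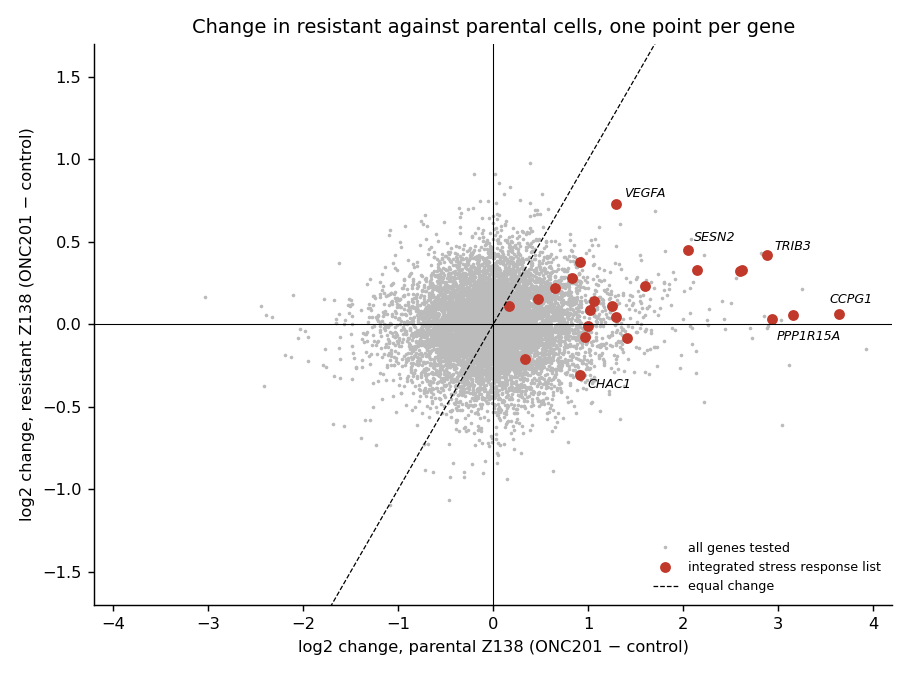
Each point is a gene, with its log2 change (ONC201 minus control) in parental Z138 on the horizontal axis and in resistant Z138 on the vertical axis, which spans a smaller range. The 24 measured genes of the integrated stress response (red) spread from 0.17 to 3.63 in parental cells and from -0.31 to 0.73 in resistant cells, and all of them lie below the dashed line of equal change.

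Of the genes of the integrated stress response, 24 of 30 listed were measured. None was called in resistant cells (0 of 24, background 0.487%), while 22 rose in parental cells. At an unadjusted p under 0.05, 9 of the 24 were higher in resistant cells (37.5%, against 9.28% of all genes) and 0 lower (against 10.4%). That count of 9 was 1 with median centring and 4 without ONC201 replicate 2 of the resistant cells. The median change of the list was 0.13 in resistant cells, beside a median of 0.00 over all genes, and 1.27 in parental cells. With median centring the list's median was -0.00323, which lay 0.12 above that of all genes. The count of 0 became 3 higher with an offset of 50 and 7 higher with a mean-variance trend in the fit. The difference between resistant and parental effects was called for 19 of the 24 (79.2%, against 30.5% of all genes).

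VEGFA, which encodes a secreted growth factor for blood vessels and is a target of ATF4, had 6.58 and 6.93 in resistant ONC201 wells and 6.04 and 5.998 in resistant controls. Its change in resistant cells was 0.73 ± 0.13 (limma, adjusted p = 0.05002, just above the threshold), against 1.29 in parental cells. A second VEGFA probe gave 0.61 in resistant cells. Of the list's members VEGFA kept the highest change in resistant cells, and its treated wells did not overlap the controls.

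SESN2, which encodes an inhibitor of mTORC1 that senses leucine, had 6.63 and 6.62 in resistant ONC201 wells and 6.24 and 6.11 in resistant controls, against 8.82 and 8.71 in parental ONC201 wells and 6.75 and 6.68 in parental controls. Its change was 0.45 ± 0.09 (limma, adjusted p = 0.0726) in resistant and 2.05 in parental cells. The treated resistant wells therefore lay above their own controls and below the untreated parental wells. TRIB3, which encodes a pseudokinase and is a target of CHOP, had 10.26 and 10.17 in resistant ONC201 wells and 9.82 and 9.78 in resistant controls, against 12.90 and 12.84 in parental ONC201 wells and 10.02 and 9.96 in parental controls. Its change was 0.42 ± 0.09 in resistant cells (95% interval 0.22 to 0.62, adjusted p = 0.0737 by limma), with wells that did not overlap, and 2.88 in parental cells.

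DDIT3, which encodes CHOP, had 8.04 and 8.23 in resistant ONC201 wells and 7.79 and 7.82 in resistant controls, against 10.52 and 10.69 in parental ONC201 wells and 7.96 and 8.02 in parental controls. DDIT4, another inhibitor of mTORC1 signalling, had 9.12 and 9.25 in resistant ONC201 wells and 8.85 and 8.88 in resistant controls, against 12.20 and 12.19 in parental ONC201 wells and 9.64 and 9.55 in parental controls. Both showed treated wells above the controls in resistant cells, with changes of 0.33 ± 0.10 for DDIT3 and 0.32 ± 0.09 for DDIT4. XPOT, which exports tRNA from the nucleus, stood at 0.38 ± 0.15 in resistant and 0.92 in parental cells, and its difference between the cells did not pass the test (-0.54, adjusted p = 0.084 by limma). ASNS, the asparagine synthetase gene, stood at 0.28 ± 0.09 in resistant cells, but its second probe gave 0.04.

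PPP1R15A, which encodes a phosphatase subunit that reverses eIF2 phosphorylation, had 8.03 and 8.12 in resistant ONC201 wells and 7.97 and 8.11 in resistant controls, against 11.78 and 11.70 in parental ONC201 wells and 8.78 and 8.83 in parental controls. Its wells overlapped in resistant cells, where the 95% interval of its change ran from -0.18 to 0.25. ATF4 itself stood at 0.15 ± 0.10 in resistant and 0.47 in parental cells, ATF3 at 0.11 ± 0.11 and 1.25, and TNFRSF10B, the TRAIL receptor DR5, at -0.01 ± 0.09 and 0.99. CHAC1, a glutathione-degrading enzyme gene downstream of ATF4, had 5.15 and 5.01 in resistant ONC201 wells and 5.27 and 5.51 in resistant controls, and stood at -0.31 ± 0.14. Its probe was not above background on either treated array. With those arrays raised to their lowest detected signal, its level was 1.101-fold lower than in the controls. The 95% interval of its change in resistant cells ran from -0.62 to 0.007, so a fall was not established. In parental cells CHAC1 rose by 0.92.

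**Figure D2:**
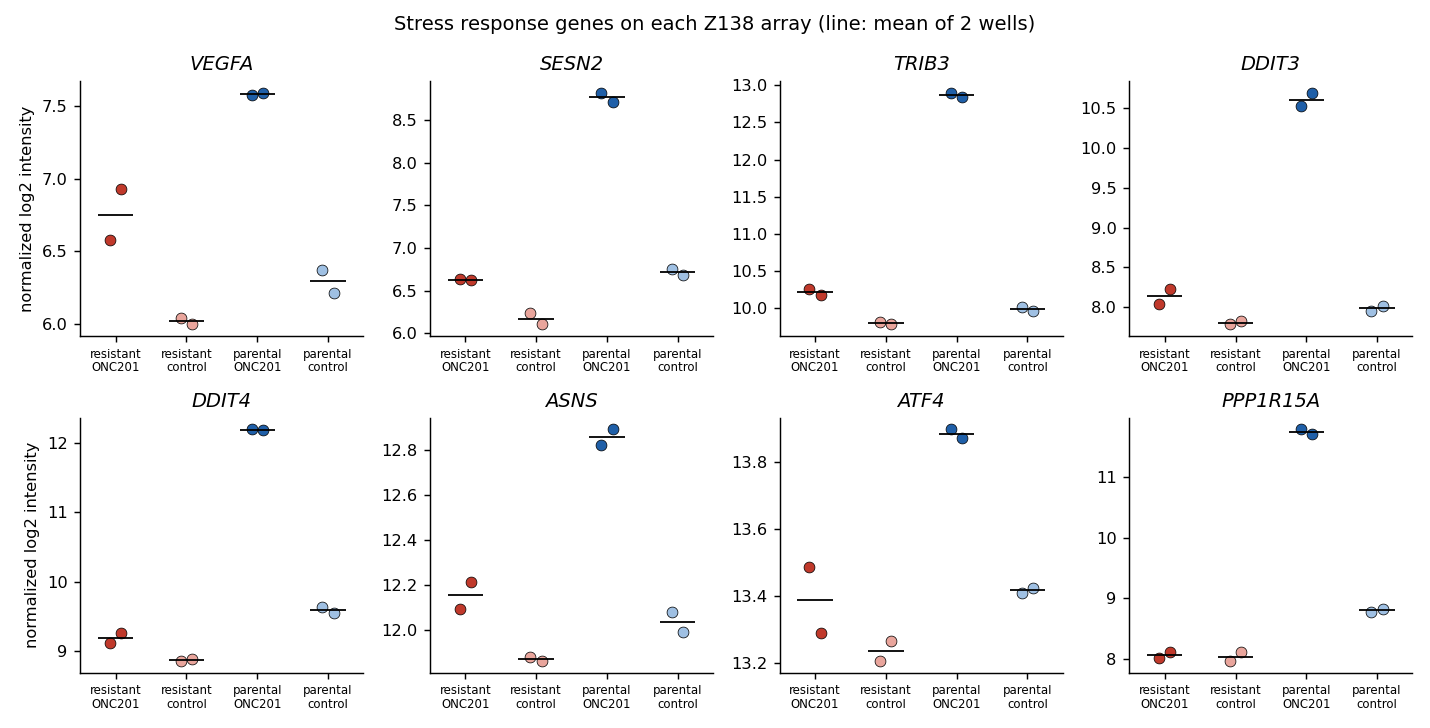
Normalized log2 intensity of 8 stress response genes on each of the 8 Z138 arrays, with 1 dot per well and a line at the mean of 2 wells; the vertical axes differ between genes and do not start at 0. In 6 of the panels (VEGFA, SESN2, TRIB3, DDIT3, DDIT4 and ASNS) both resistant ONC201 wells lie above both resistant controls and below the parental ONC201 wells. ATF4 is also higher in both treated resistant wells, by a margin smaller than the gap between those wells, and the PPP1R15A wells overlap in resistant cells.

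The promoters of 4 of these genes are shown because the members spread in resistant cells. SESN2 and TRIB3 stood at 0.45 and 0.42, and ASNS at 0.28 on 1 of 2 probes. CHAC1 stood at -0.31, but neither treated array detected it and a fall was not established. The windows run from 250 bases before to 50 bases after the annotated start (RefSeq, GRCh38.p14), on the strand of the gene. ATF4 with a C/EBP partner is known to bind a composite element, here searched on both strands as TGATGNAA, and matches are in capitals. The windows are those of SESN2 at chr1:28259268-28259567 (plus strand), TRIB3 at chr20:381045-381344 (plus strand, 1 of 3 annotated starts), ASNS at chr7:97872359-97872658 (minus strand, 1 of 2 annotated starts) and CHAC1 at chr15:40953221-40953520 (plus strand).
SESN2: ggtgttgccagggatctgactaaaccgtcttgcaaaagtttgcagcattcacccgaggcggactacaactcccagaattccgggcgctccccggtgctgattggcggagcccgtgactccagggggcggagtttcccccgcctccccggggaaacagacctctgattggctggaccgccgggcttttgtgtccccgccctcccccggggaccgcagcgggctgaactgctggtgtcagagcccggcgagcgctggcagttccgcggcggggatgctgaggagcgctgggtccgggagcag
TRIB3: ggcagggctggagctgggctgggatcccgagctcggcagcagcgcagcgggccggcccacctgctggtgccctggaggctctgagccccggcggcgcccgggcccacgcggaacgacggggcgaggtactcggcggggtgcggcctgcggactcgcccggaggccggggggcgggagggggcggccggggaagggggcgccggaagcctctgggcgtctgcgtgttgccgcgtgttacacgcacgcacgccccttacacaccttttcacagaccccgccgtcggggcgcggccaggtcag
ASNS: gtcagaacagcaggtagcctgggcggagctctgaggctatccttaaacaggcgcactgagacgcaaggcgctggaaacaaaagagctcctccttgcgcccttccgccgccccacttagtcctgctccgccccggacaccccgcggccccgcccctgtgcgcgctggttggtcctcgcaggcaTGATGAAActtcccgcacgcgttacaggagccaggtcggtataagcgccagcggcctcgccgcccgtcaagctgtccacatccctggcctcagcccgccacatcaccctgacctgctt
CHAC1: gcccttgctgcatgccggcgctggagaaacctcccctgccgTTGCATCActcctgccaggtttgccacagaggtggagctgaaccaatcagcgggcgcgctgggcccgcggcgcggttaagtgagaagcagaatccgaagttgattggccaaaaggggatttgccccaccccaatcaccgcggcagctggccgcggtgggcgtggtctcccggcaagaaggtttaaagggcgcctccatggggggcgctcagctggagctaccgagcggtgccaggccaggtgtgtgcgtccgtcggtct
The ASNS window held TGATGAAA on the gene's strand, 68 bases before the start, and the CHAC1 window held the reverse complement, printed as TTGCATCA, 209 bases before the start. The SESN2 and TRIB3 windows held no match. Of the 2 ASNS windows, the one with a match was chosen for display, and the other held none. The element was found in 1270 of 35116 promoter windows (3.62%). By gene, it was in a window of 199 of the 7635 tested genes that have one (2.61%) and of 6 of the 21 measured stress genes that have one. Those 6 had a median change of 0.10 in resistant cells (-0.31 to 0.28), and the 15 without a match had a median of 0.15 (-0.09 to 0.45). These matches are letters in a window and say nothing of binding.

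The lists of amino acid synthesis and transport and of mTORC1 inhibitors share members with the stress response list, so their counts are related. The list of cytosolic tRNA synthetases shares none. At an unadjusted p under 0.05, 6 of 20 measured genes of amino acid synthesis and transport were higher (30%) and 0 lower. The shares over all genes were 9.28% and 10.4%. The list's median change was 0.08, and none of its members was called. SLC6A9, a glycine transporter gene, stood at 0.43 ± 0.15 in resistant and 2.82 in parental cells. The mitochondrial folate enzyme gene MTHFD2 stood at 0.36 ± 0.10 and 1.05, and SLC7A5, a transporter of large neutral amino acids, at 0.34 ± 0.09 and 0.54. ALDH18A1, which starts proline synthesis, had 10.14 and 10.13 in resistant ONC201 wells and 9.78 and 9.85 in resistant controls. It stood at 0.32 ± 0.10 in resistant and -0.26 in parental cells, and the difference passed the test (0.58, limma, adjusted p = 0.015). Among 17 cytosolic tRNA synthetases, 3 were higher (17.6%, against 9.28% of all genes) and 0 lower. These 3 were EPRS1 at 0.29 ± 0.10, IARS1 at 0.28 ± 0.09 and AARS1 at 0.26 ± 0.09. A second, dimmer IARS1 probe gave -0.18. The list's median was 0.15 in resistant and 0.52 in parental cells. Of 11 mTORC1 inhibitors, 4 were higher (36.4%, against 9.28% of all genes), SESN2 and DDIT4 among them, and 0 lower.

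**Figure D3:**
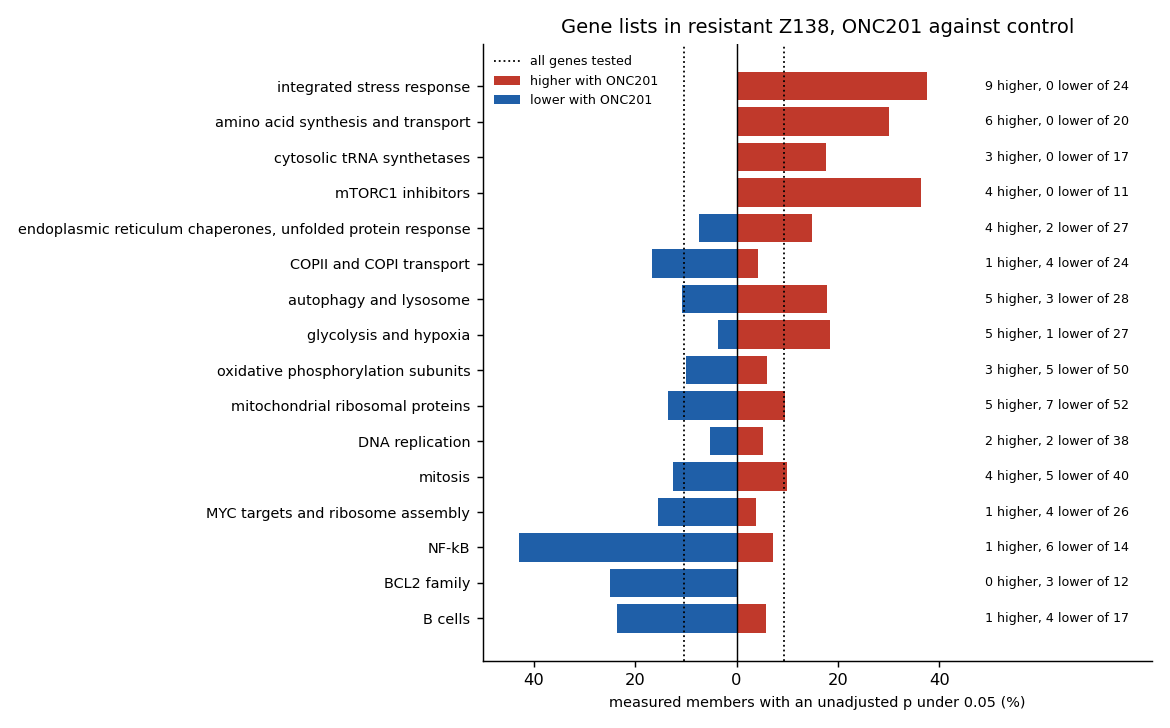
Share of the measured members of 16 gene lists with an unadjusted p under 0.05 in resistant Z138, higher with ONC201 to the right and lower to the left, with the counts printed at the right. The dotted lines mark the same shares over all genes tested, 9.28% higher and 10.4% lower. The integrated stress response has 9 higher and 0 lower of 24, a count of 9 that is 1 with median centring and 4 without resistant ONC201 replicate 2, and NF-kB has 1 higher and 6 lower of 14, a count of 6 that is 2 without resistant control replicate 1.

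Chaperones of the endoplasmic reticulum and genes of the unfolded protein response, of which 25 of 27 rose in parental cells, were not called in resistant cells. At an unadjusted p under 0.05, 4 were higher (14.8%, against 9.28% of all genes) and 2 lower (7.41%, against 10.4%). The median was 0.05 in resistant and 0.91 in parental cells. SEC61A1, the channel subunit of the translocon through which new proteins enter the reticulum, had 11.66 and 11.57 in resistant ONC201 wells and 11.14 and 11.07 in resistant controls. Its change of 0.51 ± 0.09 just missed the threshold (limma, adjusted p = 0.0505), beside 1.03 in parental cells. SEC61B, another subunit of the same channel, had 12.60 and 12.41 in resistant ONC201 wells and 13.01 and 12.92 in resistant controls, a change of -0.46 ± 0.11, beside 0.52 in parental cells. The 2 subunits thus stood on opposite sides of 0 in resistant cells and on the same side in parental cells. HSPA5, which encodes the chaperone BiP, stood at 0.27 ± 0.10 in resistant and 1.61 in parental cells. For DNAJB9, a BiP cofactor gene, the values were -0.03 ± 0.12 and 2.44. XBP1, a transcription factor gene of this response, stood at 0.03 ± 0.11 in resistant and 1.37 in parental cells.

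Of 24 genes for coats of the vesicles between the reticulum and the Golgi, 1 was higher (4.17%) and 4 lower (16.7%). The shares over all genes were 9.28% and 10.4%. The list's median was 0.00 in resistant and 0.58 in parental cells, where 19 rose. SAR1B, the GTPase that starts COPII coats, stood at -0.41 ± 0.12 in resistant and 0.62 in parental cells, although its second probe gave 0.09 in resistant cells. The COPI subunit ARCN1 had 9.93 and 10.06 in resistant ONC201 wells and 10.30 and 10.37 in resistant controls, against 11.24 and 11.11 in parental ONC201 wells and 10.26 and 10.25 in parental controls. Its change of -0.34 ± 0.09 in resistant cells differed from that of 0.92 in parental cells (-1.26, limma, adjusted p = 5.5e-04). COPB1, another COPI subunit, stood at -0.26 ± 0.10 and 0.99.

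Of 14 measured genes of NF-kB signalling, which supports survival of B cells, 6 were lower (42.9%, against 10.4% of all genes) and 1 higher in resistant cells at an unadjusted p under 0.05. Without resistant control replicate 1 the count of 6 was 2. The median change of the list was -0.14 in resistant and 0.18 in parental cells. BCL3, which encodes a nuclear IkB protein that binds NF-kB dimers, had 7.497 and 7.47 in resistant ONC201 wells and 8.14 and 8.06 in resistant controls, against 8.28 and 8.17 in parental ONC201 wells and 8.14 and 8.07 in parental controls. It fell by 0.62 in resistant cells (SE 0.09, limma, adjusted p = 0.0394), where the wells did not overlap, and was the 1 gene of the list that was called.

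NFKBIB, the gene of an inhibitor that holds NF-kB in the cytoplasm, stood at -0.43 ± 0.11 in resistant cells and at -0.65 on its second probe. NFKB2, the precursor of the non-canonical subunit, stood at -0.39 ± 0.12 in resistant cells, at -0.46 on its second probe, and at 0.39 in parental cells. For both genes the resistant and the parental effect differed (NFKBIB -0.58, NFKB2 -0.78). IRF1, an interferon-induced transcription factor gene counted in this list, was the higher member, at 0.34 ± 0.10. It is also on the list of interferon response genes. Of the 22 measured there, 4 were higher (18.2%, against 9.28% of all genes) and 0 lower at an unadjusted p under 0.05. None of them was called, and the list's median was 0.08 in resistant and -0.01 in parental cells. BCL2L1, which encodes the survival protein BCL-xL, had 10.26 and 10.23 in resistant ONC201 wells and 10.59 and 10.65 in resistant controls. Its 2 probes gave -0.37 and -0.40 in resistant cells. In the BCL2 family 3 of 12 genes were lower (25%, against 10.4% of all genes) and 0 higher.

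Of 17 B-cell genes, 4 were lower (23.5%, against 10.4% of all genes) and 1 higher (5.88%, against 9.28%). The median was -0.14 in resistant and -0.45 in parental cells. CD37, a tetraspanin of B cells, had 5.33 and 5.22 in resistant ONC201 wells and 5.84 and 5.70 in resistant controls, a change of -0.49 ± 0.14, with -0.56 on a second probe. POU2AF1, a B-cell coactivator of octamer promoters, stood at -0.37 ± 0.10 in resistant and -0.39 in parental cells. MS4A1 stood at -0.08 ± 0.15 in resistant cells, with overlapping wells, and -1.61 in parental cells. CD79B, a signalling chain of the B-cell receptor, stood at 0.29 ± 0.11 in resistant and -0.45 in parental cells, while its other 2 probes gave 0.09 and -0.04 in resistant cells. Among the lymphoma genes, CCND1 stood at 0.12 ± 0.10 and SOX11 at -0.22 ± 0.10 in resistant cells, against -0.41 and 1.03 in parental cells.

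Genes of the cell cycle, which fell widely in parental cells, moved little in resistant cells. Of 38 genes of DNA replication, 2 were higher and 2 lower at an unadjusted p under 0.05 in resistant cells, while 32 fell in parental cells. Of 40 genes of mitosis the counts were 4 higher and 5 lower, against 28 that fell in parental cells. The shares were 5.26% higher and 5.26% lower for replication, and 10% and 12.5% for mitosis. Those over all genes were 9.28% and 10.4%, so both lists lay near or below them. The glycolytic enzyme PKM had 10.19 and 10.40 in resistant ONC201 wells and 10.86 and 10.72 in resistant controls. Its 3 probes gave -0.50, -0.74 and -0.69 in resistant cells, and -0.70 on the first probe in parental cells. PKM was the 1 lower gene among 27 of glycolysis and hypoxia (3.70%, against 10.4% of all genes). In that list 5 genes were higher (18.5%, against 9.28% of all genes), and its median change was 0.06 in resistant cells. H2AX, the histone variant that is phosphorylated at DNA breaks, stood at -0.50 ± 0.12 in resistant and -0.83 in parental cells. NOP56, a core protein of box C/D particles that guide ribosomal RNA modification, stood at -0.45 ± 0.09 in resistant cells on its brightest probe, while its other probes gave 0.06 and 0.33.

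Mitochondrial genes showed counts close to the background. Of 50 subunits of oxidative phosphorylation, 3 were higher (6%) and 5 lower (10%) at an unadjusted p under 0.05. Of 52 mitochondrial ribosomal proteins 5 were higher (9.62%) and 7 lower (13.5%). The shares over all genes were 9.28% and 10.4%. NDUFV2, a complex I subunit, stood at -0.56 ± 0.12 in resistant and -0.45 in parental cells. CLPP, the protease that ONC201 activates, had 9.88 and 9.91 in resistant ONC201 wells and 9.85 and 10.03 in resistant controls, against 9.66 and 9.55 in parental ONC201 wells and 9.89 and 9.98 in parental controls. Its transcript level in treated resistant wells lay within the range of the controls. CLPX, its unfoldase partner, stood at -0.23 ± 0.09, and LONP1, another matrix protease, at 0.08 ± 0.12 in resistant and 1.00 in parental cells.

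None of the 46 genes called in resistant cells was on the stress response list. The fall of PTMA, which encodes the small acidic nuclear protein prothymosin alpha, was the largest: its levels were 9.45 and 9.21 in resistant ONC201 wells and 10.28 and 10.58 in resistant controls, against 9.31 and 9.25 in parental ONC201 wells and 10.22 and 10.51 in parental controls. PTMA fell by 1.095 in resistant cells (SE 0.14) and by 1.08 in parental cells, and the difference of -0.01 did not pass the test. PTMA has near-identical pseudogenes that its probe may also read. MAZ, a zinc finger transcription factor gene, had 6.84 and 7.14 in resistant ONC201 wells and 8.04 and 8.08 in resistant controls, against 7.44 and 7.55 in parental ONC201 wells and 7.85 and 8.07 in parental controls. It fell by 1.06 in resistant cells and by 0.46 in parental cells, but its other 2 probes gave 0.07 and -0.16 in resistant cells.

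PCGF1, a subunit of a Polycomb repressive complex, had 7.92 and 8.15 in resistant ONC201 wells and 8.86 and 8.99 in resistant controls, against 9.49 and 9.49 in parental ONC201 wells and 8.83 and 8.89 in parental controls. It fell by 0.89 in resistant cells and rose by 0.63 in parental cells, a difference of -1.52 (limma, adjusted p = 4.1e-04). GATAD2B, a subunit of the NuRD deacetylase complex, fell by 0.78 in resistant cells and rose by 0.30 in parental cells. INO80E, a subunit of the INO80 remodelling complex, fell by 0.74 in resistant cells and stood at -0.05 in parental cells. PTMS, parathymosin, a relative of PTMA, fell by 0.90 in resistant cells and stood at -0.10 in parental cells. SSBP3, a single-stranded DNA-binding cofactor, fell by 0.93 in resistant and 0.45 in parental cells, with -0.24 on its second probe in resistant cells. SCAF1, an SR-related protein that binds RNA polymerase II, fell by 0.83, and LENG8 fell by 0.75.

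The other large falls in resistant cells were those of APLP1, an amyloid precursor-like protein gene, by 0.92, YWHAE, a phosphoserine-binding adaptor, by 0.90, SAC3D1 by 0.88, MRPL2, a mitochondrial ribosomal protein, by 0.72, and AP2A1, a clathrin adaptor subunit, by 0.72. YWHAE gave -0.57 and AP2A1 -0.60 on a second probe, while APLP1 gave 0.01. AHDC1, a DNA-binding protein gene, was at least 1.48-fold lower, since neither treated array detected it. The remaining falls, 1 of them at a locus without an official symbol, lay between -0.73 and -0.53.

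Among the rises, CLOCK, a transcription factor gene of the circadian clock, had 6.69 and 6.85 in resistant ONC201 wells and 5.69 and 6.03 in resistant controls, against 5.56 and 5.76 in parental ONC201 wells and 5.63 and 5.66 in parental controls. PRKDC, the kinase gene of DNA end joining, had 10.57 and 10.67 in resistant ONC201 wells and 9.66 and 9.77 in resistant controls, against 9.57 and 9.44 in parental ONC201 wells and 9.90 and 9.53 in parental controls. Both rose by 0.91 in resistant cells on the probe used, but the second CLOCK probe gave -0.25, and the other PRKDC probes gave 0.02, 0.07 and 0.25. RNPEP, an aminopeptidase gene, rose by 0.79 in resistant cells, SPRYD3 by 0.74, ECI1, an isomerase of mitochondrial fatty acid oxidation, by 0.69, and CCDC28B by 0.64, with -0.18 on its second probe. TAGLN, an actin-binding protein gene, was at least 1.45-fold higher, GDPD4 at least 1.32-fold and GUCA1A at least 1.05-fold, as no resistant control array detected them. Of the 46 genes, 18 were also called in parental cells, 12 in the same and 6 in the opposite direction. Of all genes tested 44.8% were called in parental cells, so the overlap was no larger than that share. The difference between the cells was called for 35 of the 46, beside 30.5% of all genes. The 46 were chosen on the resistant change, which the difference contains, so this count is a description.

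**Figure D4:**
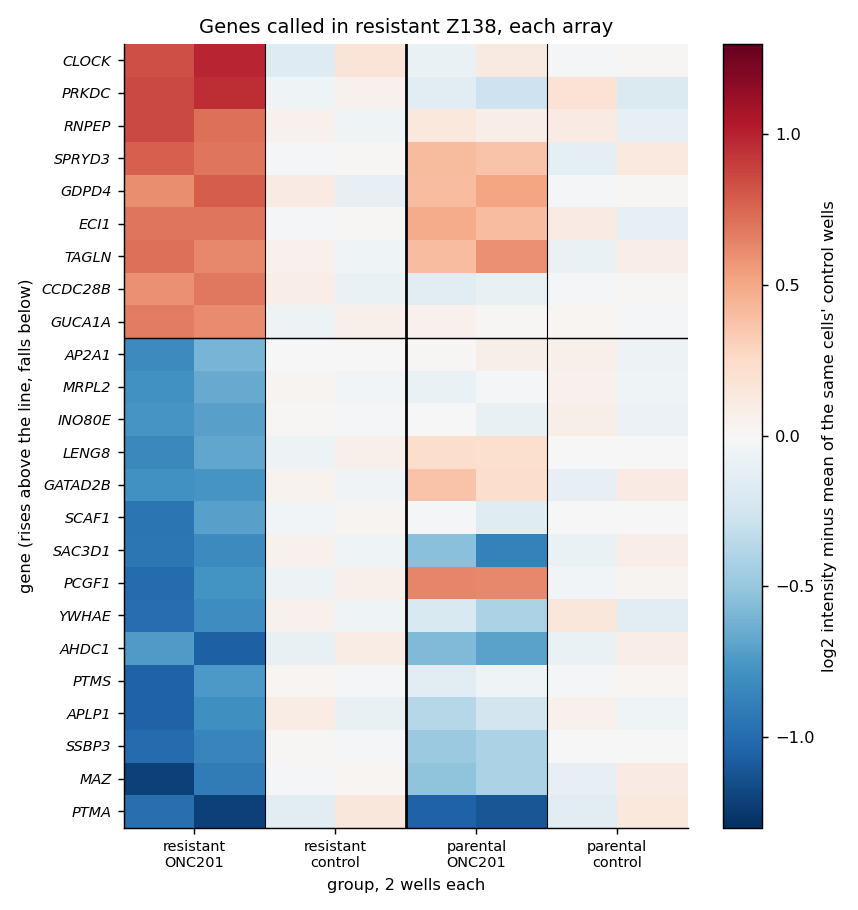
Log2 intensity of the 9 named rises and the 15 largest named falls on each Z138 array, minus the mean of the control wells of the same cells; red is higher and blue is lower. In the resistant ONC201 wells the 9 rises are all red and the 15 falls all blue, while in the parental ONC201 wells PTMA is as low as in resistant cells and PCGF1 is higher than its control. AHDC1, GDPD4, TAGLN and GUCA1A were undetected in 1 resistant group, so their colours hold a bound only.

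Where a gene had a second detected probe, it served as another measurement of the same wells. Of the 46 genes called, 11 had other detected probes, 15 in all. Of these 15, 9 had the same direction and 6 the opposite one, and 3 had the same direction with an unadjusted p under 0.05. Over the 2304 genes with 2 detected probes, the log2 changes of the brightest and the second probe correlated with r = 0.14 in resistant cells and r = 0.82 in parental cells (across genes, which share the arrays). Among genes whose brightest probe changed by 0.4 to 1.1 on the log2 scale in either direction, the second probe had the same direction for 73 of 134 genes (54.5%) in resistant cells and for 686 of 730 (94.0%) in parental cells. The difference between these shares was not tested. Of 7 stress response genes with 2 probes, 6 had the same direction on both in resistant cells, beside 1242 of all 2304 genes (53.9%). One of the 6, GADD45A, lay below 0 on both (-0.21 and -0.08). For the others, the second probe gave 0.61 for VEGFA, 0.25 for SLC3A2, 0.09 for CTH, 0.04 for ASNS and 0.009 for ATF4.

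**Figure D5:**
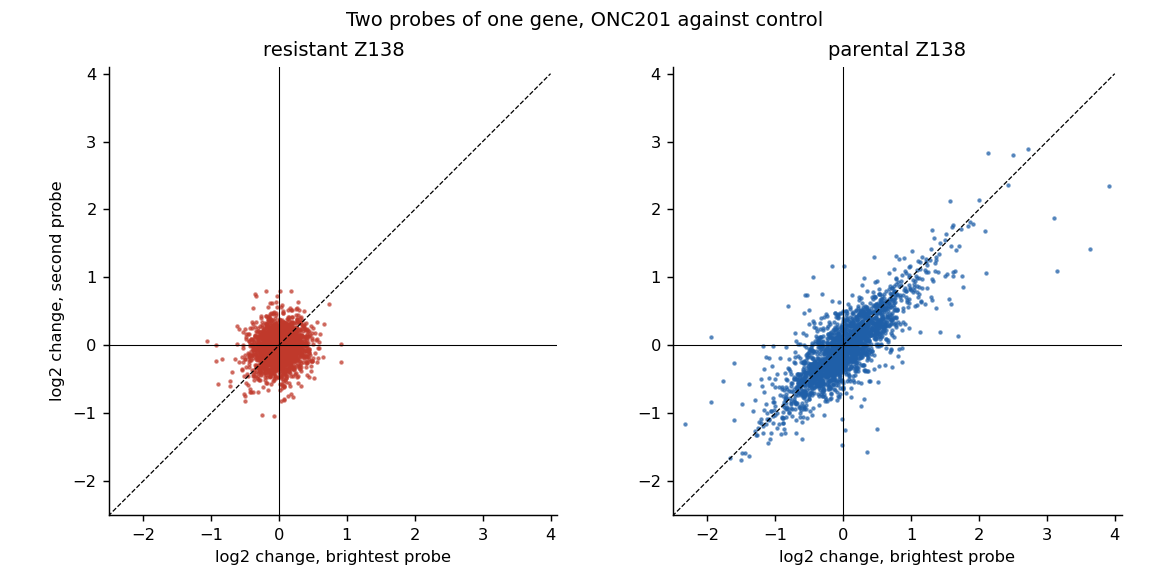
Log2 change (ONC201 minus control) on the brightest probe, horizontal axis, and on the second probe of the same gene, vertical axis, for 2304 genes in resistant (left) and parental (right) Z138; the dashed line marks equal change. The resistant points form a round cloud (r = 0.14) and the parental points follow the dashed line (r = 0.82).

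Some genes had changes of opposite sign in the 2 kinds of cell. Of the 46 genes called in resistant cells, 6 were called in the opposite direction in parental cells. NOTCH1, SYTL1 and CENPV, described below, were not called in resistant cells. In 647 genes the resistant change had an unadjusted p under 0.05, its sign was opposite to that of the parental change, and the difference was called; both conditions favour genes with opposite signs, so the count is a description. NOTCH1, the receptor gene recurrently mutated in mantle cell lymphoma, had 9.60 and 9.39 in resistant ONC201 wells and 8.94 and 8.97 in resistant controls, against 8.16 and 8.14 in parental ONC201 wells and 9.32 and 9.17 in parental controls. Its change was 0.54 ± 0.10 in resistant cells (limma, adjusted p = 0.0643), where the wells did not overlap, and -1.10 in parental cells. SYTL1, a synaptotagmin-like protein gene, was at least 1.32-fold lower in treated resistant wells, where neither array detected it, and rose by 3.04 in parental cells. CENPV stood at 0.57 ± 0.11 in resistant and -1.09 in parental cells, with -0.03 on its second probe in resistant cells.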

How the data were processed

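RNA from Z138 wells was amplified, labelled with biotin and hybridised to Illumina HT-12 bead arrays, per the labels' protocols. GenomeStudio is named in the submitters' processing notes. The deposited table used here holds a linear intensity per probe without background correction, per the file headers. Beside each intensity it holds a detection p-value, per the file headers. A background-subtracted and a normalized table, whose method is unknown here, served as alternatives; the median of the normalized columns ran from 23.6 to 25.3, a linear scale without centring.

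All 28 arrays were corrected and quantile-normalized with neqc of limma 3.58.1 in R 4.3.3 (offset 16). The files hold no control probes, so limma inferred the background from the detection p-values. Of 47231 probes, 17291 had a detection p under 0.01 on at least 2 of the 8 Z138 arrays, and 12278 of these carried 1 gene symbol. Of all probes, 27004 had 1 symbol, 4 several and 20223 none in GEO's platform annotation. Each of 9453 genes was represented by its detected probe with the highest mean over 28 arrays. A fit over the 4 Z138 groups gave moderated tests with Benjamini-Hochberg adjustment, and it was tested on simulated data. The R package data.table (version 1.17.8) read the files, and matplotlib drew the figures. Levels of different probes were not compared. A bound on a fold uses the lowest detected signal of the undetected arrays. Where a listed gene was unmeasured it was left out.

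Named genes come from a rule: a panel of 30, the 15 largest rises and falls called, the 4 members of each list that changed most, the 5 largest parental rises and falls, and up to 10 genes with opposite changes. Loci without official symbols were counted only. The samples compared, the 41 gene lists and the rule were chosen with earlier results of these data known, so no pattern is independent support for another. Lists are described by counts and medians, with no test of a list.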

Additional observations from a re-analysis of the deposited data

Results flagged for a closer look

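The effect of ONC201 in resistant cells differed from that in parental cells in 2886 genes by the test of the difference in limma. Values here are resistant minus parental log2 changes. In the stress response they were -3.57 for CCPG1, -2.90 for PPP1R15A, -2.46 for TRIB3, -2.29 for DDIT3, -2.28 for DDIT4 and -1.597 for SESN2. Smaller ones were -1.22 for CHAC1, -1.14 for ATF3, -1.001 for TNFRSF10B, -0.56 for VEGFA and -0.54 for ASNS. In amino acid supply and tRNA charging they were -2.39 for SLC6A9, -0.69 for MTHFD2, -0.65 for AARS1 and 0.58 for ALDH18A1. In the endoplasmic reticulum and its transport they were -2.46 for DNAJB9, -1.34 for HSPA5, -1.34 for XBP1, -0.98 for SEC61B, -0.51 for SEC61A1, -1.26 for ARCN1, -1.25 for COPB1 and -1.04 for SAR1B.

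Among the falls called in resistant cells the difference was -1.52 for PCGF1, -1.07 for GATAD2B, -0.97 for LENG8, -0.80 for PTMS, -0.76 for AP2A1, -0.74 for SCAF1, -0.69 for INO80E, -0.67 for MRPL2, -0.62 for APLP1, -0.60 for MAZ, -0.59 for YWHAE and -0.48 for SSBP3. Among the rises it was 1.12 for PRKDC, 0.90 for CLOCK, 0.76 for CCDC28B, 0.68 for RNPEP and 0.60 for GUCA1A. These hold for the probe used. On second probes the resistant and parental changes were -0.25 and -0.11 for CLOCK and -0.18 and -0.15 for CCDC28B. They were 0.07 and -0.12 for MAZ, 0.01 and 0.13 for APLP1, and -0.24 and -0.42 for SSBP3. For YWHAE they were -0.57 and -0.66, for AP2A1 -0.60 and -0.17, and for PRKDC 0.02 and -0.33. No resistant control array detected GUCA1A. In survival and B-cell genes it was -0.78 for NFKB2, -0.75 for REL, -0.74 for BCL3, -0.58 for NFKBIB, -0.57 for BCL2L1, -0.61 for CD37, 1.53 for MS4A1, 0.75 for CD79B, 0.53 for CCND1 and -1.25 for SOX11. REL was detected on 1 of the 4 resistant arrays. The mitochondrial genes gave -0.43 for CLPX and -0.92 for LONP1. The other genes named gave -4.07 for PAG1, -3.65 for SYTL1, 3.20 for MYBPH, 2.56 for ID3, 1.66 for CENPV and 1.64 for NOTCH1.

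Probes without a gene name in the platform table held larger changes in resistant cells than any named gene. Over all 17291 detected probes 15 were called, and 10 of these 15 had no gene name. Probe ILMN_2170625 had 7.75 and 7.83 in resistant ONC201 wells and 5.95 and 5.74 in resistant controls, a change of 1.95. Probe ILMN_3214893 changed by 1.78. Another probe without a name had 9.87 and 9.93 in resistant ONC201 wells and 8.40 and 8.33 in resistant controls, a change of 1.54, beside 2.55 in parental cells. Probe ILMN_1743078 had 7.15 and 7.43 in resistant ONC201 wells and 9.38 and 9.07 in resistant controls, a change of -1.94, beside 3.06 in parental cells. Probe ILMN_3224860 changed by -1.53. What these probes measure is unnamed here.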

How the results depend on the processing

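The count of 46 genes called in resistant cells (10 higher, 36 lower) depended on the processing, while the parental count of 4232 and the 2886 differences stayed within 1.5 times of their value under every alternative run. Without background correction it was 418, of which 176 were higher and 242 lower, and an offset of 50 gave 454 (198 and 256). It was 700 (325 higher, 375 lower) with a mean-variance trend, 312 (122 higher, 190 lower) over the 8085 genes detected on all 8 arrays, 107 (17 higher, 90 lower) with median centring, and 15 over all detected probes. It was 0 with the authors' background-subtracted values, the authors' normalized values, neqc over 8 arrays, no detection filter, or only 4 resistant arrays; limma gave 1676 to 2378 genes at an unadjusted p under 0.05 in these. The cause was not tested, apart from fewer arrays and more or fewer genes tested where the alternative is built so. Leaving out 1 array gave 0 to 0 calls in resistant cells. The ranges then were 3045 to 4138 parental calls, 2049 to 2433 differences, 2.36% to 3.69% for the slope, and 0.11 to 0.20 for the stress list's median. With a replicate block the resistant count was 0, with 1846 genes at an unadjusted p under 0.05; same-numbered wells share only a number (their deviations correlated from -0.09 to 0.08). With median centring the median of all genes fell by 0.12, the slope was -2.09% and the stress list's median -0.00323, which is 0.12 above all genes; its count of 9 higher at an unadjusted p under 0.05 was then 1. VEGFA, at an adjusted p of 0.05002, ranged from 0.00441 (trend) to 0.230, and the stress list held 0 to 7 genes called higher. Other alternatives were chosen after seeing the data: the mean over a gene's probes gave 41 calls, of which 38 were among the 46, and the brightest probe over Z138 arrays alone gave 43, of which 42 were.

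Some signs turned, those of 2 called rises, CLOCK and CCDC28B, among them. With median centring ATF4 was -0.00869, ATF3 -0.0299, PPP1R15A -0.0982, CCPG1 -0.0431, XBP1 -0.132, CCND1 -0.0314, LONP1 -0.0924 and ID3 -0.0587. TNFRSF10B was 0.0855 in the authors' normalized values. With the mean over probes CCPG1 was -0.0182, XBP1 -0.0429 and PAG1 0.0151. With the brightest Z138 probe CLOCK was -0.25 and CCDC28B -0.18. Without 1 array the ranges were -0.000784 to 0.218 for ATF3, -0.0352 to 0.105 for PPP1R15A, -0.0513 to 0.0350 for TNFRSF10B, -0.00572 to 0.127 for CCPG1, -0.114 to 0.0629 for DNAJB9, -0.0998 to 0.161 for XBP1, -0.298 to 0.143 for MS4A1 and -0.137 to 0.0435 for CLPP. Over the genes named, 1750 values were compared with those reported: 1262 kept direction and side of the threshold, 383 called values lost the call, 80 gained one and 25 turned sign.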
